A study of Rattus norvegicus with 2 samples.

Results

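MHC class II molecules present peptides to helper T cells and are made by few cell types. The 5 genes described here encode the classical class II chains of the rat, *RT1-Ba* and *RT1-Bb* (the alpha and beta chains of RT1-B) and *RT1-Da* and *RT1-Db1* (those of RT1-D), together with *Cd74*, the invariant chain that accompanies new class II molecules through the cell. They were chosen by name, and each was listed once among the 32883 genes of both libraries (ENSRNOG00000000451, ENSRNOG00000032708, ENSRNOG00000032844, ENSRNOG00000033215 and, for *Cd74*, ENSRNOG00000018735).

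Hypothalamic tissue holding the AVPV and ARC areas was taken from female Sprague Dawley rats at PND 29. The SC300 rats had received as neonates a silicone capsule with 300 µg estradiol benzoate (EB), while the Control rats were labelled intact and, by the methods, had a capsule with oil. Tissue from 3 rats was pooled for each group, dissociated with collagenase and made into 1 droplet-based single-cell library. All differences below therefore compare 1 library with 1 library, so treatment, pool and library cannot be told apart, no test was possible, and every interval covers counting error only.

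Class II genes are switched on in antigen-presenting cells (dendritic cells, B cells, macrophages) by the transactivator CIITA, which acts on factors bound at the conserved X and Y boxes of their promoters. In the brain they are sparse in resting microglia, the resident phagocytes of the tissue, and are better known from macrophages at its borders. The invariant chain fills the peptide groove until the DM molecule exchanges it for a peptide.

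The promoter stretches of the RT1 class II genes are shown because the members share these boxes. They come from RefSeq windows on GRCr8, running from 250 bases before to 50 bases after each start, and all 5 members were matched. The capitals mark the Y-box letters CTGATTGG and, before them, the X-box end ACNGATG, both searched on both strands and not overlapping each other.
RT1-Da, chr20:4515318-4515390, plus strand: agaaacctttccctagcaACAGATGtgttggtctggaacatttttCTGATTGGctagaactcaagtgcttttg
RT1-Db1, chr20:4560218-4560290, minus strand: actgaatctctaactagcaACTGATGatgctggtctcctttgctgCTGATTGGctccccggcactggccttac
RT1-Ba, chr20:4576966-4577038, plus strand: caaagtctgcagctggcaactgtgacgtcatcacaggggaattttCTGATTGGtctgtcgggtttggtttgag
RT1-Bb, chr20:4604155-4604227, minus strand: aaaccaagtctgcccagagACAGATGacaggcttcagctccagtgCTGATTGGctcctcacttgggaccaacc

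All 4 RT1 members held the Y-box letters, which 3.50% of 33469 promoter windows contained. The letters began 52 bases before the start in *RT1-Da*, 83 in *RT1-Db1*, 46 in *RT1-Ba* and 64 in *RT1-Bb*. The X-box end stood 27 bases before the Y-box letters in *RT1-Da* and 26 bases before them in *RT1-Db1* and *RT1-Bb*, whereas it was not found in the *RT1-Ba* window. By itself the X-box end occurred in 10.2% of windows. An X-box end followed on the same strand by the Y-box letters within 60 bases was present in 14 windows (0.0418%), 4 of them belonging to *RT1-Da*, *RT1-Db1*, *RT1-Bb* and *RT1-Db2*, a further class II beta gene. Neither set of letters was found in the *Cd74* window. These matches describe letters only and do not show binding.

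After cells with under 200 detected genes were left out, 4296 Control and 4379 SC300 cells remained, with median depths of 7986 and 8182 UMIs (unique molecular identifiers, each counting 1 captured RNA molecule). The libraries held 51382276 and 56390355 UMIs, and 7 of the kept cell barcodes occurred in both, with 2 class II UMIs in Control and 0 in SC300. Macrophages were taken as cells with at least 2 of *Mrc1*, *Cd163*, *Lyve1* and *F13a1* detected, and microglia as cells with at least 3 of *Tmem119*, *P2ry12*, *Cx3cr1* and *Csf1r*. Cells that passed both rules (3 and 5) were kept apart, and other cells were named by at least 3 of 4 markers of their class or left unassigned (505 and 405).

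The macrophage and microglia classes carried their names' other markers. *Pf4*, a macrophage chemokine, was detected in 93.8% of 16 Control and 97.6% of 42 SC300 macrophages, and *C1qa*, a complement gene of both classes, in 93.8% and 100%. *Sall1*, a transcription factor typical of microglia, was detected in 82.2% of the 461 Control microglia and in 81.2% of the 453 SC300 microglia. Neither *Pf4* nor *Sall1* was confined to its class. *Pf4* was detected in 35.1% of Control and 27.4% of SC300 microglia. *Sall1* was detected in 55.7% of Control and 55.2% of SC300 mature oligodendrocytes. *Siglech*, a further microglia marker, was at 0 in both groups of microglia, so it gave no support to the name.

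Over all cells, the 5 members together had 2611 UMIs in Control and 4167 in SC300. In CPM (UMIs of a gene per 1000000 UMIs of the library or class), the sum stood at 50.8 for Control against 73.9 for SC300. The log2 ratio, here and below SC300 over Control, was 0.54 (95% interval 0.47 to 0.61). Any member was detected in 208 Control cells (4.84%) and 192 SC300 cells (4.38%), so SC300 had more class II UMIs in slightly fewer cells.

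The members kept a similar order in both libraries. *Cd74* supplied 46.1% of the class II UMIs in Control and 45.3% in SC300. *RT1-Da* supplied 26.4% and 23.2%, *RT1-Db1* 14.7% and 18.2%, and *RT1-Ba* 11.6% and 12.3%. *RT1-Bb* was the scarcest, with 32 UMIs (1.23%) in Control and 44 (1.06%) in SC300. UMIs count captured 3′ ends of transcripts. How evenly the genes were captured was not tested, so these shares describe captured molecules and not relative expression. *RT1-Db2*, a close relative of *RT1-Db1*, had 1 and 4 UMIs, and reads that both genes could share cannot be told apart here.

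Over all cells, *RT1-Db1* had the largest log2 ratio of the members, 0.85 (0.67 to 1.03), from 7.45 CPM in Control to 13.4 CPM in SC300. It was followed by *RT1-Ba* with 0.63 (0.42 to 0.84), *Cd74* with 0.51 (0.41 to 0.62) and *RT1-Da* with 0.35 (0.21 to 0.49). The interval of *RT1-Bb*, 0.33 (-0.36 to 1.03), included no difference. These totals were carried by very few cells, as follows.

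In Control, 5 of 4296 cells held 50% of all class II UMIs and 43 held 90%. In SC300, 3 of 4379 cells held 50% and 14 held 90%. The top cell alone had 734 UMIs (28.1%) in Control and 1486 UMIs (35.7%) in SC300, and the top 10 cells had 74.2% and 82.7%. A total over either library is thus mainly a statement about a handful of cells.

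**Figure D1:**
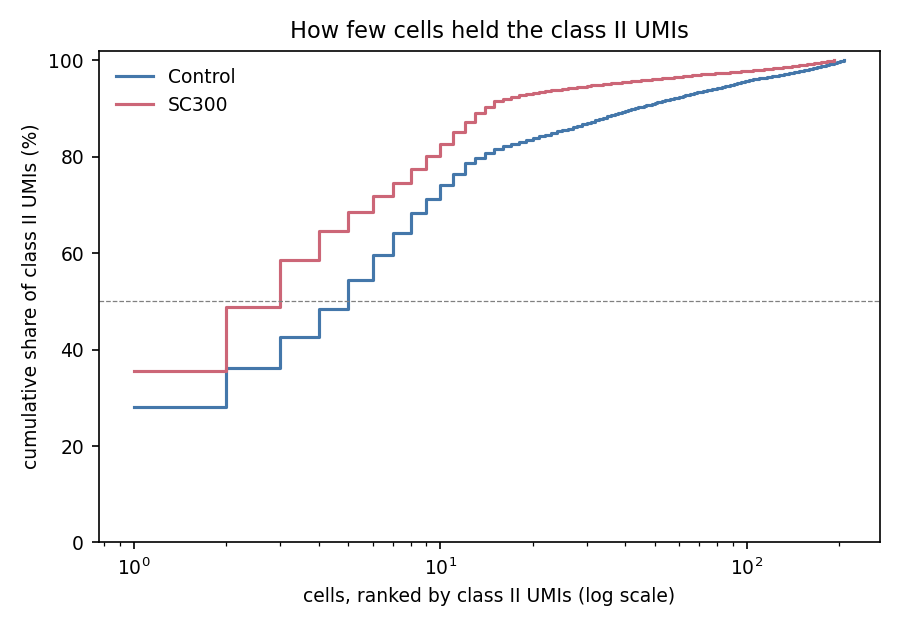
Cumulative share of class II UMIs (percent, vertical axis) over cells ranked by their class II UMIs (horizontal axis, log scale) in the Control and SC300 libraries. The dashed line marks 50%, which 5 Control and 3 SC300 cells reached.

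*Cd74* was less concentrated than its partners. Its 1204 Control UMIs needed 6 cells for 50% and 62 cells for 90%, and its 1888 SC300 UMIs needed 4 and 22 cells. For *RT1-Da*, 14 Control and 11 SC300 cells held 90%, and for *RT1-Db1* 13 and 11 cells did. *Cd74* without any RT1 member was seen in 107 Control and 104 SC300 cells, *Cd74* together with an RT1 member in 52 and 32, and an RT1 member without *Cd74* in 49 and 56. All 5 members were detected together in 5 Control and 9 SC300 cells.

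Cells with at least 10 class II UMIs (a limit set after the values were seen) numbered 21 in Control and 18 in SC300. They held 2199 of 2611 UMIs in Control and 3866 of 4167 in SC300. None of these 39 cells was called a doublet. They were also grouped by marker genes after the values were seen. Most of the groups occurred in both libraries, with different numbers of cells, and these small numbers were not tested.

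Microglia made up 14 of the 21 Control cells but 4 of the 18 SC300 cells. They carried 929 UMIs (35.6% of the library's class II UMIs) in Control and 162 UMIs (3.89%) in SC300. None of them had a UMI of *Clec10a*, a lectin of dendritic cells and some macrophages. *Clec10a* was detected in 87.5% of Control and 100% of SC300 macrophages, although it is counted below among the dendritic cell markers.

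Unassigned cells with *Clec10a* and *Lyz2*, the lysozyme of myeloid cells, were the main carriers in SC300. There were 3 of them in SC300, with 1486, 546 and 412 class II UMIs (58.7% of the library's), and 1 in Control, with 209 (8.0%). The Control cell was a weak match, with 1 *Clec10a* UMI and 0 *Mrc1* UMIs, against 31, 17 and 19 *Clec10a* UMIs in the SC300 cells. The first of the SC300 cells had 239 UMIs of *RT1-Ba*, 25 of *RT1-Bb*, 387 of *RT1-Da*, 355 of *RT1-Db1* and 480 of *Cd74*, together 12.2% of its 12169 UMIs. It also had 31 UMIs of *Clec10a*, 82 of *Lyz2*, 4 of *Mrc1*, 2 of *Ciita* and 1 of *Flt3*, a receptor of dendritic cells. All 3 missed the macrophage rule by a single marker, having *Mrc1* but not *Cd163*, *Lyve1* or *F13a1*. Neither *Clec10a* nor *Lyz2* set them apart from macrophages, of which 81.25% in Control and 95.2% in SC300 had *Lyz2*. With only 1 or 2 of 8 dendritic cell markers detected in each, they were given no cell type name.

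Cells with *Cd79b*, a chain of the B cell receptor complex, and without *Lyz2* formed another group, with 1 cell in Control and 5 in SC300. The Control cell had 120 class II UMIs (4.60%), and the SC300 cells had 81 to 135 each, 559 in all (13.4%). Their *Cd79b* counts were 5 in Control and 5 to 16 in SC300. *Ms4a1*, a further B cell marker, was detected in 3 of the SC300 cells, with 1 to 3 UMIs, and not in the Control cell, and none of the cells was called a B cell. Over each whole library, at least 2 of 4 T or NK cell markers were found in 4 Control and 5 SC300 cells, with 0 and 8 class II UMIs. At least 2 of 8 dendritic cell markers were found in 1 Control and 5 SC300 cells, with 734 and 2147, while *Xcr1* and *Clec9a*, which define one branch of dendritic cells, were at 0 in all cells with at least 10 class II UMIs. An astrocyte and an endothelial cell by the marker rules were among the SC300 cells of this group, with 135 and 116 class II UMIs.

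The remaining high cells passed the macrophage rule (3 in Control with 774 UMIs, 6 in SC300 with 701 UMIs, 1 of which also passed the microglia rule) or had *Lyz2* without *Clec10a* (2 in Control with 138 and 29 UMIs, the second an endothelial cell by the marker rules, and none in SC300).

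**Figure D2:**
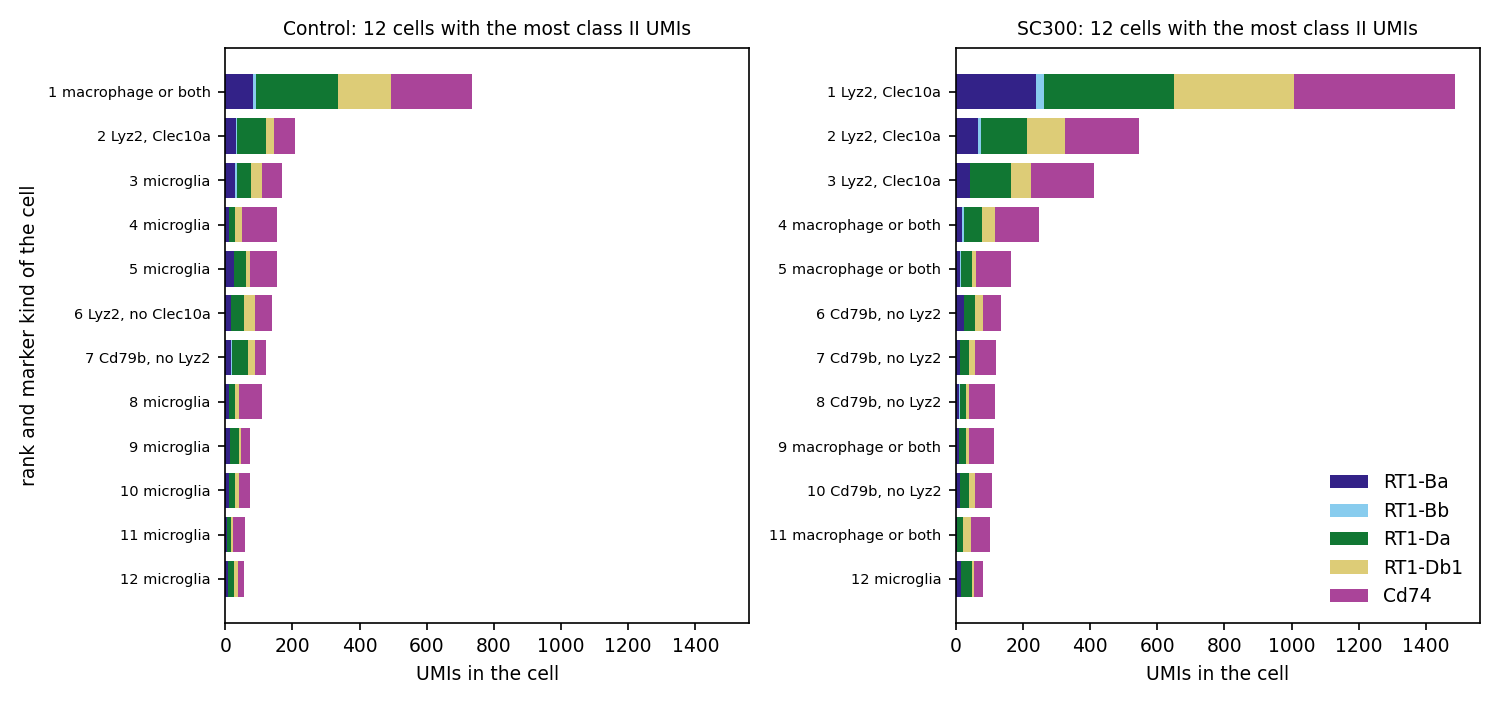
UMIs of the 5 members (stacked bars, horizontal axis) in the 12 cells with the most class II UMIs of each library, labelled by rank and marker kind. Microglia are 8 of the 12 Control cells shown and 1 of the 12 SC300 cells, and the SC300 top cell reaches 1486 UMIs.

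Macrophages were 16 of the Control cells (0.372%, exact 95% interval 0.213 to 0.604%) and 42 of the SC300 cells (0.959%, 0.692 to 1.29%). On the log2 scale the shares differed by 1.36 (0.20 to 2.60). Of the Control macrophages, 12 had no class II UMI and the other 4 had 734, 30, 10 and 9. Of the SC300 macrophages, 27 had none and the highest had 249, 163, 113, 54 and 19. In both libraries most macrophages thus lacked detectable class II RNA, and a few held nearly all of it.

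Summed over macrophages, class II UMIs were 783 in Control (5052 CPM) and 622 in SC300 (1285 CPM). The log2 ratio was -1.98 (-2.13 to -1.82). This direction rests on 1 cell. The top Control macrophage, with 83 UMIs of *RT1-Ba*, 10 of *RT1-Bb*, 244 of *RT1-Da*, 156 of *RT1-Db1* and 241 of *Cd74*, held 93.7% of the sum. With the top cell left out of each library, the levels became 346 CPM (Control) and 783 CPM (SC300), and the log2 ratio turned to 1.18 (0.74 to 1.64). No direction for macrophages is therefore drawn from these libraries.

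The same cell set the ratio of each member. The RT1 chains had log2 ratios of -2.37 (*RT1-Ba*), -2.16 (*RT1-Bb*), -2.78 (*RT1-Da*) and -2.95 (*RT1-Db1*), and all Control UMIs of *RT1-Ba*, *RT1-Bb* and *RT1-Db1* in macrophages came from that cell. *Cd74* was detected in 4 of 16 Control macrophages and 15 of 42 SC300 macrophages, with 286 and 389 UMIs, a log2 ratio of -1.20. Of genes with at least 50 UMIs in macrophages, 7.79% of 1887 were at least 1.5-fold lower in SC300 and 14.6% were at least 1.5-fold higher. Of the 4 members with that many UMIs, 4 were lower and 0 were higher.

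*Lyve1*, a receptor of perivascular and meningeal macrophages, separated the SC300 macrophages in a split made after the values were seen. It was not confined to macrophages here, being detected in 56.6% of Control and 60.3% of SC300 microglia. The 4 SC300 macrophages without a *Lyve1* UMI held 525 of the 622 class II UMIs, with 3 of them at 249, 163 and 113. The 38 with *Lyve1* held 97 UMIs, the highest having 54. All 16 Control macrophages had *Lyve1*, which was at 1 UMI in the top cell, so the split could not be compared between the libraries. Among SC300 macrophages, *Cd163* divided the UMIs into 435 in 35 cells that had it and 187 in 7 that did not. The 35 SC300 macrophages with *F13a1* held 620 of 622 UMIs, while the 3 Control macrophages without it held 764 of 783. Of those 764 UMIs, 734 came from the top Control cell, so this split could not be compared between the libraries either. *Lyve1*, *Cd163* and *F13a1* are also markers of the macrophage rule itself.

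Across macrophages, the genes whose log-normalized levels followed the summed class II level most closely were *Lyz2*, *Cd83*, a maturation marker of antigen-presenting cells, and *Cxcl2*, a chemokine. Their correlations, averaged over the libraries, were 0.57, 0.42 and 0.41 among 378 genes. They were followed by *RT1-CE10* (0.39), *Fos* (0.35), *LOC100364435* (0.34), *Hnrnpf* (0.34), *Junb* (0.34), *Cyba* (0.33) and *Vim* (0.33). With 16 and 42 cells, of which few had class II, and with the cells of each library sharing its depth and free RNA, these values are a description only.

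**Figure D3:**
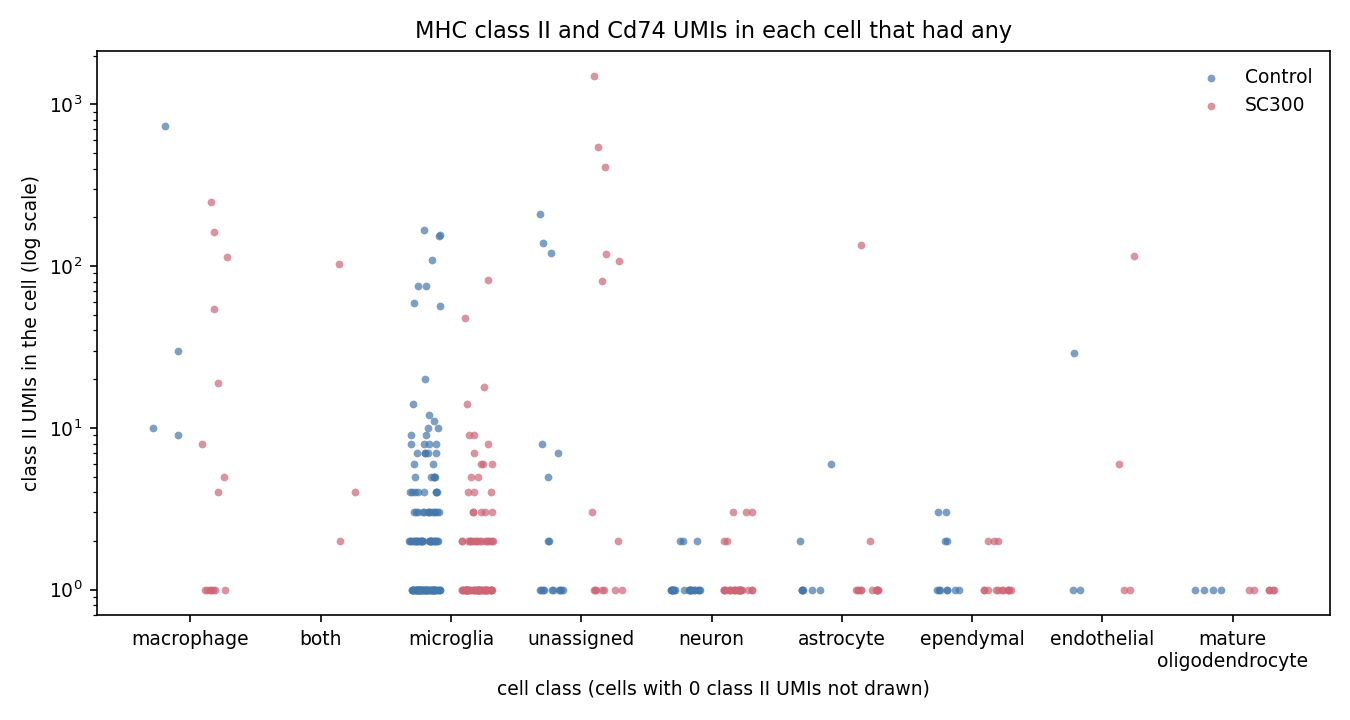
Class II UMIs (5 members summed, log scale) in each cell that had at least 1, by cell class and library. Each point is a cell, and cells at 0 are not drawn. High points are mostly microglia in Control and mostly unassigned cells and macrophages in SC300, while neurons, ependymal cells and mature oligodendrocytes stay at 3 UMIs or below.

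Microglia were 10.7% of Control and 10.3% of SC300 cells, and here the members' lower level in SC300 did not rest on a single cell. Class II UMIs were 1227 in 461 Control microglia (320 CPM, exact Poisson interval 302 to 338) and 333 in 453 SC300 microglia (85.8 CPM, 76.9 to 95.6). The log2 ratio was -1.90 (-2.08 to -1.72), and -2.09 with the top microglia of each library left out. All members lay on the same side.

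*Cd74*, the most abundant member in microglia, had 715 UMIs in Control against 221 in SC300, and its log2 ratio was -1.71 (-1.93 to -1.49). For *RT1-Da*, 239 and 63 UMIs gave -1.94 (-2.36 to -1.53) on the same scale. For *RT1-Ba*, 138 and 31 UMIs gave -2.17 (-2.78 to -1.60). The beta chain *RT1-Db1* differed most among the well-counted members, from 127 to 17 UMIs, or -2.92 (-3.74 to -2.18). *RT1-Bb* had only 8 and 1 UMIs, and its interval, -8.49 to -0.12, is correspondingly wide. Of 7953 genes with at least 50 UMIs in microglia, 6.35% were at least 1.5-fold lower in SC300 and 3.33% at least 1.5-fold higher. Of the 4 members with that many UMIs, 4 were lower and 0 higher, with a median log2 ratio of -2.06 beside -0.04 over all genes.

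The difference in microglia was mostly one of high cells. At least 10 class II UMIs were found in 14 Control microglia (3.04%, 1.67 to 5.04%) and 4 SC300 microglia (0.883%, 0.241 to 2.25%). The Control cells had 10 to 168 UMIs and the SC300 cells 14 to 82, so their ranges overlapped. In the other microglia, 298 Control and 171 SC300 UMIs remained, with a log2 ratio of -0.86.

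Detection of any member was also less frequent in SC300 microglia, in 28.4% of Control cells (24.3 to 32.8%) and 19.0% of SC300 cells (15.5 to 22.9%). Median depths of microglia were 7602 and 8052 UMIs. With each cell thinned to 2000 UMIs, which left out 17 and 18 microglia, the shares were 14.4% of 444 Control cells (11.3 to 18.0%) and 7.36% of 435 SC300 cells (5.09 to 10.2%). *Cd74* was detected in 12.4% and 7.13% of thinned microglia. Mature oligodendrocytes, which should lack class II, had a member in 1.01% of 395 Control and 1.22% of 493 SC300 cells at median depths of 19921 and 20809 UMIs. After thinning it was seen in 0 of 386 and 0 of 492 of them, for which the exact intervals reach 0.951% and 0.747%. Neurons, deeper still, had a member in 5.05% of Control and 6.0% of SC300 cells, and in 0.447% and 0.899% after thinning. The microglial shares were above both of these background types at equal depth.

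*Sall1*, which the microglia rule did not use, was detected in 12 of the 14 high Control microglia and 3 of the 4 high SC300 microglia, at 225 and 166 CPM against 264 and 249.5 CPM in the others. *B2m*, the light chain of MHC class I, was at 6891 against 4947 CPM in Control and 6017 against 4883 CPM in SC300, higher in the high microglia of both libraries. *Spp1*, a gene of activated microglia, was found in 2 of 14 high Control microglia with 19 UMIs, and in 2 of the other 447 with 2 UMIs. In SC300 it was found in 1 of 4 high microglia with 7 UMIs, and in 7 of the other 449 with 45 UMIs. *Axl*, a receptor for dying cells, was at 57.9 against 14.9 CPM in Control and 166 against 21.9 CPM in SC300, from 9 and 6 UMIs in the high microglia. It was detected in 2 of 14 high and 39 of 447 other Control microglia. In SC300 it was detected in 2 of 4 high and 56 of 449 other microglia. *Itgax*, *Cst7* and *Lpl*, listed with these, were not higher in the high microglia of both libraries. *Itgax* and *Cst7* had 0 UMIs in the high microglia of both libraries and at most 1 in the other microglia. *Lpl* had 2 UMIs in 1 high Control cell, or 12.9 against 2.72 CPM in the other Control microglia. It had 0 UMIs in the high SC300 cells, against 2.60 CPM in the other SC300 microglia.

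The cytokine genes *Ccl3*, *Ccl4* and *Il1b* of reactive microglia were compared in 2 ways. *Il1b* was at 733 CPM in the high and 1828 CPM in the other Control microglia, and at 55.2 against 1879 CPM in SC300, lower in the high cells of both libraries. *Ccl3* was at 4346 against 3243 CPM in Control and 221 against 3604 CPM in SC300, and *Ccl4* at 6769 against 4552 and 662 against 5507 CPM, so these genes differed in opposite directions in the 2 libraries, with only 4 high cells in SC300. Microglia with 2 or 3 of *Ccl3*, *Ccl4* and *Il1b* detected had 292 class II CPM in Control and 81.4 in SC300. Microglia with 0 or 1 of them had 415 and 106 CPM, so the lower level in SC300 was present in both sets. The second set had only 3 high cells in Control and 1 in SC300. Its highest cell held 155 of 363 class II UMIs in Control and 48 of 74 in SC300.

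Genes whose level followed class II across microglia, a comparison added after the values were seen, were led by *C3*, a complement component, with a mean correlation of 0.32 among 5884 genes. *RT1-CE10* (0.23), *RT1-CE4* (0.21) and *B2m* (0.18), all of MHC class I, came next. The coefficients are low, and the counts sparse.

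**Figure D4:**
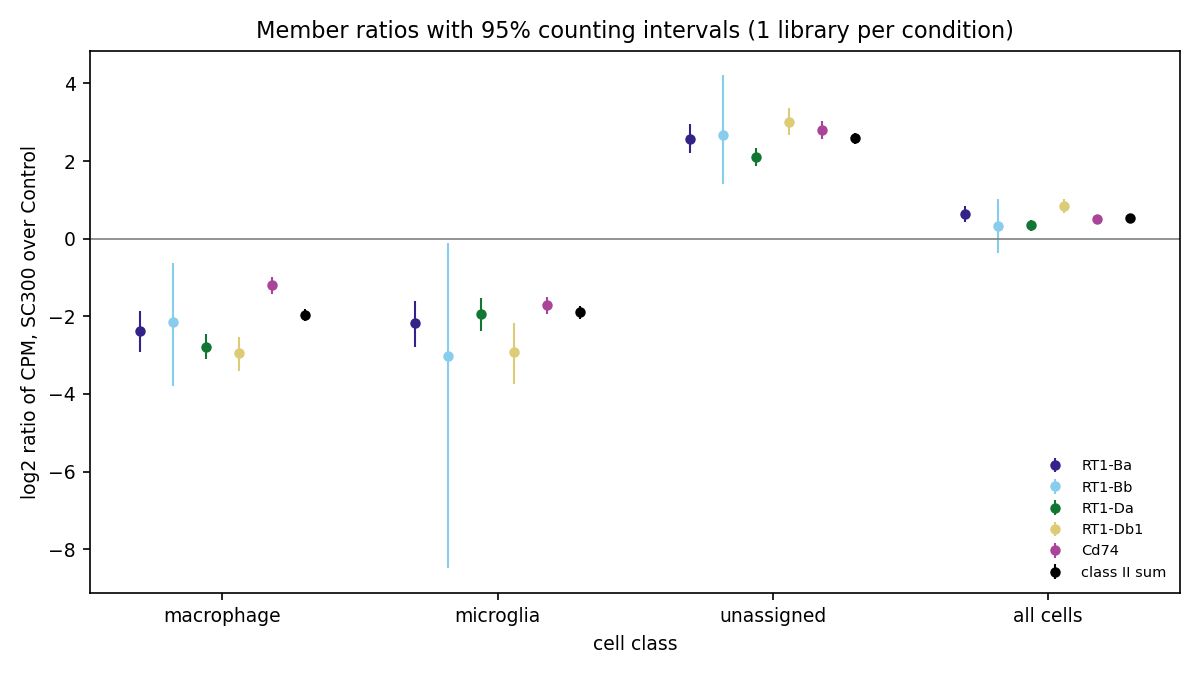
Log2 ratio of CPM, SC300 over Control, for each member and their sum in macrophages, microglia, unassigned cells and all cells. Points are the ratios and bars the exact 95% counting intervals. Ratios are below 0 in macrophages and microglia and above 0 in unassigned cells, and the summed macrophage ratio, -1.98 here, is 1.18 without the top cell of each library.

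Among the genes of the class II pathway with enough UMIs to compare, none differed by 1.5-fold in microglia. Of 25 listed genes, 23 were found, and 14 had at least 50 UMIs in microglia. Of these, 0 were lower and 0 higher by that limit, and their median log2 ratio was 0.10. Among them, the cathepsin *Ctss*, which trims the invariant chain, had 1677 and 1974 CPM (log2 0.24), and *Ifi30*, a reductase of the endosome, 304 and 299 CPM (-0.02). *Spi1* and *Irf8*, myeloid transcription factors, had log2 ratios of 0.22 and 0.20, and *Ifngr1*, a chain of the interferon-gamma receptor, -0.10. In macrophages, 10 of the list had 50 UMIs, of which *Ifngr1* (-0.75) was lower and *Ctss* (0.63) and *Cd83* (0.59) were higher by the same limit.

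The regulators and peptide editors were near the detection limit. *Ciita* had 1 UMI in the microglia and 1 in the macrophages of each library, and in the high cells it had 2 UMIs in Control and 6 in SC300. *Rfxank* and *Rfx5*, subunits of the complex bound at the X box, had 42 and 14 UMIs in Control microglia and 51 and 12 in SC300 microglia. *RT1-DMa* and *RT1-DMb*, the chains of the DM peptide editor, had 0 UMIs in all 21 high Control cells and all 18 high SC300 cells, where 3 UMIs would be 12.8 and 20.2 CPM. The same genes had 3 and 8 UMIs in Control microglia and 4 and 6 in SC300 microglia, so they were not absent from the data. *RT1-DOb*, a chain of the DO molecule that restrains DM, had 16 UMIs in Control microglia and 0 in SC300 microglia. With the 0 set to 3 UMIs its log2 ratio was -2.43, and its counting interval reached up to -1.96.

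Genes of the MHC class I list, RT1 genes and others such as *B2m*, differed from each other. In microglia, 13 of 27 listed genes had 50 UMIs, of which 3 were lower in SC300 by 1.5-fold and none higher. *RT1-A1* had 2825 Control and 109 SC300 UMIs in microglia (log2 -4.71), and 5346 and 213 over all cells (-4.78). The other genes were *RT1-T24-4* (-0.76) and *RT1-CE4* (-0.63), whereas *RT1-CE10* (0.21), *RT1-A2* (0.28) and *B2m* (-0.04) were within 1.5-fold. Over all cells, *RT1-T24-4* (-2.96) and *RT1-S3* (-1.08) were also lower and *RT1-T24-3* (0.89) was higher. The RT1 class I genes include near-identical copies that differ between haplotypes, and the part of such sequence differences in the class II values was not tested.

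Outside macrophages and microglia, class II was higher in SC300 under the 2-marker rule, by an amount that depended on that rule. There were 601 Control UMIs (12.7 CPM) and 3103 SC300 UMIs (59.7 CPM). Their log2 ratio was 2.23 (2.11 to 2.36). The Control top cell, with *Clec10a* and *Lyz2* like the SC300 carriers, counted as a macrophage through 1 *Lyve1* UMI beside *Mrc1*. With 3 of 4 markers required it belonged to the outside cells, and their log2 ratio was 1.13 (1.04 to 1.23). Over all cells but microglia, macrophages included, it was 1.33 (1.24 to 1.42), from 1384 and 3834 UMIs. With macrophages defined by at least 2 *Clec10a* UMIs, 601 and 659 UMIs remained outside, at 12.7 CPM in each library. That rule moved the 3 SC300 cells with *Clec10a* and *Lyz2* into the macrophages. The Control cell of that group, with 209 class II UMIs and 1 *Clec10a* UMI, stayed outside. These other rules were applied after the values were seen. Under the 2-marker rule, unassigned cells held 501 of the 601 Control UMIs and 2764 of the 3103 SC300 UMIs, in 18 and 15 cells. The log2 ratio in unassigned cells was 2.59 (2.45 to 2.73). *RT1-Db1* had the highest member ratio in unassigned cells, 3.01 (2.66 to 3.37), and *RT1-Da* the lowest, 2.10 (1.86 to 2.34). With the top cell of each library left out, the ratio in unassigned cells was 2.25 (2.07 to 2.44).

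Macrophages held 30.0% of class II UMIs in Control (28.2 to 31.8%) and 14.9% in SC300 (13.9 to 16.0%), and microglia 47.0% and 7.99%. These shares depend on where the rule divides cells. In Control, 5 cells with exactly 2 macrophage markers held 734 UMIs and 308 cells with 1 marker held 801. In SC300, 8 cells with 2 markers held 116 UMIs and 351 cells with 1 marker held 2554. Most SC300 class II RNA thus lay in cells of any class with 1 marker, 2444 UMIs of it in the 3 cells with *Clec10a* and *Lyz2*. Having 1 marker does not make a cell nearly a macrophage. Many such cells were microglia, since *Lyve1* was detected in 56.6% of Control and 60.3% of SC300 microglia. With macrophages taken instead as cells with at least 2 *Clec10a* UMIs that were not microglia, an alternative added after the values were seen, the share was 30.0% in 17 Control cells and 76.1% in 51 SC300 cells. By that rule the levels were 3959 CPM for Control against 5055 CPM for SC300, and the log2 ratio was 0.35.

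The balance of *Cd74* to the RT1 members differed between classes. In microglia there were 1.40 *Cd74* UMIs for each RT1 class II UMI in Control and 1.97 in SC300, and in unassigned cells 0.491 and 0.617. In macrophages the values were 0.575 in Control, set by the top cell, and 1.67 in SC300. *Cd74* was thus the larger part of the microglial sum and the RT1 chains of the unassigned sum, in both libraries. In 83 Control and 67 SC300 microglia *Cd74* was the only member detected, and 1 cell held 1486 of the 2764 SC300 unassigned UMIs. High microglia varied. *Cd74* was 59 of 168 UMIs in the top Control one and 28 of 82 in the top SC300 one. In the second of each library it was 104 of 155 and 26 of 48.

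**Figure D5:**
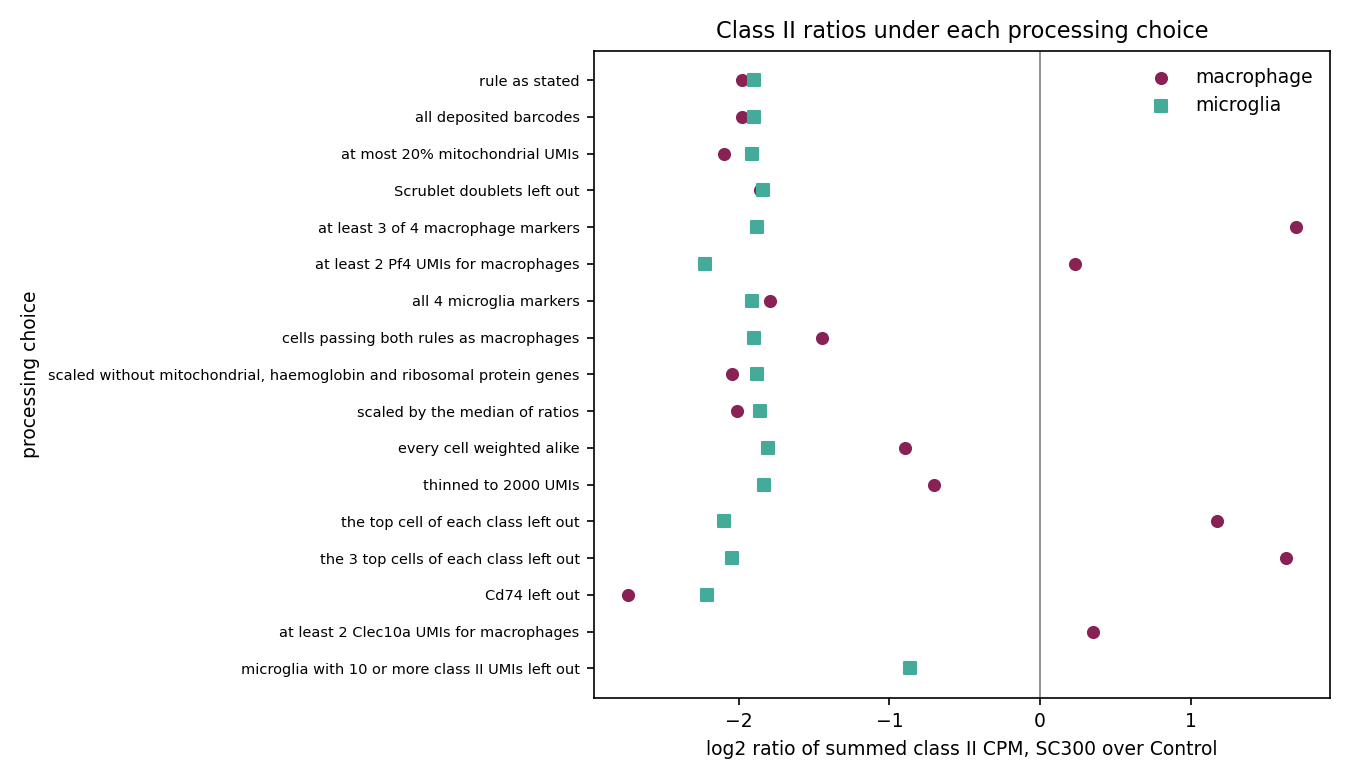
Log2 ratio of the summed class II CPM, SC300 over Control, in macrophages and microglia under each processing choice. The microglia ratio stays below 0 under every choice drawn for it, from -2.22 to -0.86, while the macrophage ratio runs from -2.74 to 1.70.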

How the data were processed

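The authors demultiplexed and counted the reads with Cell Ranger (version 3.0.1 in the submitters' processing notes) against the Ensembl rat transcriptome, and deposited raw UMI counts for each gene and barcode, without normalization; the genome build is not given in the sources used here. Of the 4488 and 4524 deposited barcodes, those with 200 or more genes were used (4296 and 4379), classes were assigned by the marker rules, and UMIs were summed over each class and divided by the class's total UMIs (CPM). Shares have exact binomial (Clopper-Pearson) intervals, levels exact Poisson intervals, and ratios of UMIs conditional binomial intervals, all at 95%. The ratio of macrophage shares has instead the quotients of opposite limits of the 2 shares, which is wider than a 95% interval. PCR and dissociation are not covered by any of them. Doublets were called with Scrublet (1.63% and 1.67% of cells) and kept. Likeness is the mean of both libraries' Pearson correlations after scaling to 10000 UMIs per cell. The members, a fixed class II pathway list, a class I list and the 10 most alike genes were named; these and the gene lists were chosen with earlier results of these data known. Of the lists, *Ccr2*, *Cd79a*, *Plac8* and *Marchf1* were not matched to a listed gene, and some list members are not reported here. Ratios and class rules were run on simulated data as a check of the code only. The simulated counts were independent draws over whole libraries, and the simulated cells were given the rules' own markers. Such a check does not cover class II UMIs held by a few cells, or whether the rules name real cells rightly. Python 3.11.15, numpy 2.4.6, scipy 1.17.1, pandas 2.3.3 and scanpy 1.11.5 were used.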

Additional observations from a re-analysis of the deposited data

Results flagged for a closer look

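Under the 2-marker macrophage rule, class II RNA differed in opposite directions in different cells of the same libraries. In microglia the log2 ratio, SC300 over Control, was -1.90, and in cells outside the macrophage and microglia classes it was 2.23. With 1 library per condition each direction rests on 1 pair of libraries, and the difference between them was not tested. The second value depends on the macrophage rule, being 1.13 with 3 of 4 markers and -4.54e-05 (-0.16 to 0.16) with *Clec10a*, so the opposite direction is not kept under every rule. The *Clec10a* value itself depends on the limit of 2 UMIs, since a Control cell with 209 class II UMIs and 1 *Clec10a* UMI stayed outside. The value of 2.23 comes mainly from the 3 SC300 cells with *Clec10a* and *Lyz2* and the 5 with *Cd79b*.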

How the results depend on the processing

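No paired analysis was possible because each group has 1 library. Of 14 alternatives set at the start and others added after seeing the data, those on barcodes, mitochondrial share, doublets and scaling left the sums within the counting interval. The summed macrophage log2 ratio reversed to 1.70 with 3 of 4 markers, 0.23 with *Pf4*, 0.35 with *Clec10a* (added), 1.18 without the top cell and 1.63 without the top 3. It was -1.79 with all 4 microglia markers, -1.45 with cells passing both rules included, -0.90 with every cell weighted alike, -0.71 after thinning and -2.74 without *Cd74*. The microglia ratio was -2.22 with *Pf4*, -2.09 without the top cell, -2.21 without *Cd74* and -0.86 without the high microglia (added).

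The Control macrophage share of class II UMIs was 1.88% with 3 markers, 39.1% with *Pf4*, 24.3% after thinning, 1.88% without the top cell, 0.345% without 3 and 35.3% without *Cd74*. The SC300 share was 12.2% with 3 markers, 38.0% with *Pf4*, 17.4% with all 4 microglia markers, 17.5% with cells passing both rules, 19.1% after thinning, 8.95% without the top cell, 2.33% without 3, 10.2% without *Cd74* and 76.1% with *Clec10a*. In the shares without the top cell or the top 3, the left-out cells still counted in the library's total class II UMIs. The ratio of macrophage numbers was 0.38 with *Pf4*, and its wider interval from opposite share limits (-0.27 to 1.03) includes no difference. Under the other alternatives this ratio was 1.23 to 1.61. Outside macrophages and microglia, the added rules gave 1.13 with 3 markers, 2.43 with *Pf4*, -4.54e-05 with *Clec10a* and 1.33 with macrophages included.

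Among members, macrophage ratios reversed for *RT1-Ba* (0.053 with *Pf4*, 0.62 with *Clec10a*), *RT1-Bb* (0.33, *Clec10a*), *RT1-Da* (2.87 with 3 markers, 2.13 without the top cell), *RT1-Db1* (0.31, *Clec10a*) and *Cd74* (1.13 with 3 markers, 0.72 with *Pf4*, 0.77 without the top cell, 1.41 without 3, 0.56 with *Clec10a*). None reversed in microglia. Ratios with a member at 0 in either library, or with under 5 UMIs in all, were not computed. Few cells carry class II, so its depth of counts does not measure how sure a direction is.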

Other observations

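Low class II counts outside the immune classes were not alike in all cell types. Among ependymal cells, which line the ventricles, *RT1-Db1* had 12 UMIs in 8 of 119 Control cells and 16 UMIs in 13 of 97 SC300 cells (4.16 and 8.0 CPM). In 7 of those 8 Control cells and all 13 SC300 cells it was the only member detected, and *RT1-Ba* and *RT1-Bb* had 0 UMIs in ependymal cells of both libraries. By comparison, *RT1-Db1* supplied 14.7% and 18.2% of the class II UMIs of the libraries as a whole. In mature oligodendrocytes *RT1-Db1* had 0 Control UMIs and 1 SC300 UMI, from more UMIs in all than the ependymal cells had.

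In neurons, *RT1-Db1* had 4 UMIs in 4 Control cells and 18 UMIs in 17 of 450 SC300 cells, in 16 of which no other member was detected. *RT1-Bb* had 7 UMIs in 6 Control neurons and 0 in SC300 neurons. *RT1-Ba* was the only member detected in the newly formed oligodendrocytes of Control (4 UMIs in 2 of 95 cells), and had 3 UMIs in 3 of the 95 SC300 cells. Whether these reads come from the members or from overlapping transcripts was not tested.

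Barcodes with under 200 genes, which were left out, held 0 class II UMIs in Control and 2 in SC300.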
